A study of Mus musculus with 6 samples.

Results

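The amylase gene cluster of the mouse was taken as the 7 rows of the deposited count files with the symbols Amy1, Amy2a1, Amy2a2, Amy2a3, Amy2a4, Amy2a5 and Amy2b, out of 55367 symbols in each file. The 6 RNA-seq libraries formed 1 group of pancreatic acinar cells, the enzyme-secreting cells of the exocrine pancreas. They came from untreated mice of the genotype Pdx1-Cre; Klf5-mCherry-CreERT2, in which a Pdx1 promoter drives Cre and CreERT2 is a Cre that needs tamoxifen to act. Each library was made by Smart-seq2 with 12 preamplification cycles from 300 GFP-positive sorted cells, and the genotype names no GFP reporter. The labels name no animal for any library, so the p-values measure only the spread between these samples, which may be technical. A number in the library names, of unknown meaning, separates set A (replicates 1 to 3) and set B (replicates 4 to 6), which may be batches and are no groups of the study.

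Alpha-amylase is the secreted enzyme that cuts starch into short sugars. In mice the Amy2 genes are known as the pancreatic amylases and Amy1 as the form of salivary gland and liver. Acinar cells store amylase with the other digestive enzymes in zymogen granules, and the PTF1 transcription factor complex, with Ptf1a and Rbpjl, drives many of the enzyme genes.

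All 7 genes lie on the minus strand of chromosome 3 (build mm10) within 459 kb. In order of position they are Amy2b (113147656 to 113156727), Amy2a5 (113247178 to 113258837), Amy2a4 (113279843 to 113291449), Amy2a3 (113312455 to 113324052), Amy2a2 (113345055 to 113356658), Amy2a1 (113529403 to 113532428) and Amy1 (113555710 to 113606699). Amy2a1 is the shortest, with 4 exons of 890 bp in all in the GENCODE M21 annotation, which is a truncated model, since the RefSeq interval runs on to 113528095. Amy1 has the longest span, 50990 bp, and overlaps the end of its neighbour Rnpc3, on the same strand, by 1633 bp. Amy2b is typed as an unprocessed pseudogene in GENCODE and as protein coding in RefSeq.

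**Figure D1:**
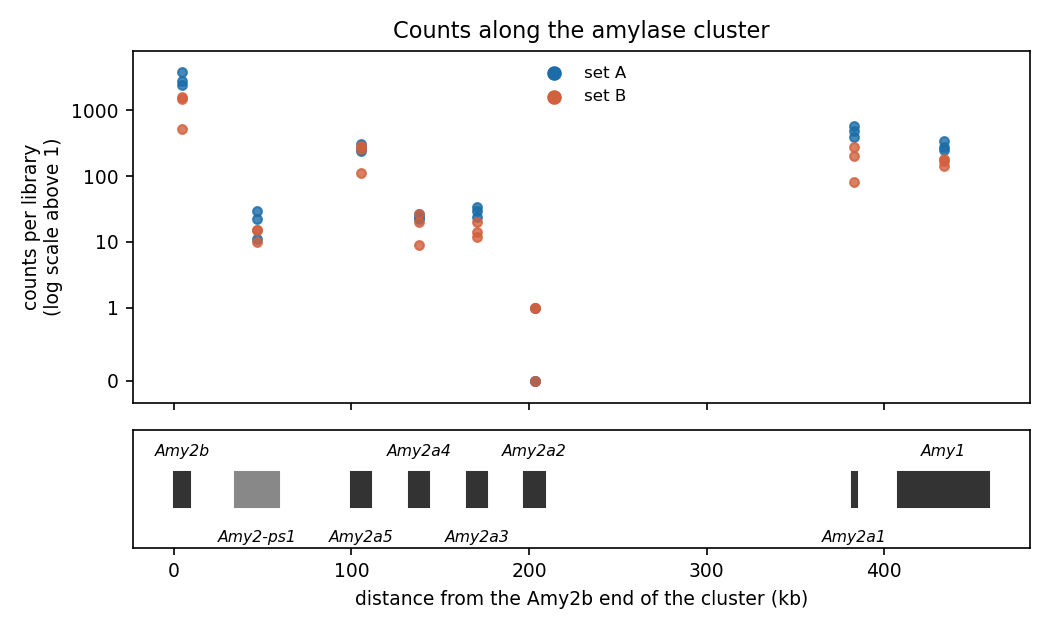
Counts of each amylase gene in the 6 libraries (top, log scale above 1, each point a library, blue for set A and orange for set B) above the position of the genes along the cluster in kb (bottom, black for the 7 members and grey for the annotated pseudogene Amy2-ps1). Amy2b, at an end of the cluster, had 527 to 3832 counts, and Amy2a2, in the middle, had 0 or 1.

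The copies differ little in sequence, which limits how reads can be told apart. Over the 1527 bp coding sequence of Amy2a5, a frame of 508 codons, the Amy2a2, Amy2a3 and Amy2a4 transcripts of GENCODE M21 were 100% identical to it, as was Amy2a1 over the 735 bp it covers. Amy2b was 98.0% identical, with 29 differing bases and 1 missing, and Amy1 89.9% identical, with 154 differing bases and 9 inserted. A window of 60 bases at coding positions 187 to 246 shows the 3 sequence types, with capitals for bases that differ from Amy2a5.
Amy2b: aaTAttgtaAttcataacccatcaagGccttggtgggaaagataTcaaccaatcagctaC
Amy2a5: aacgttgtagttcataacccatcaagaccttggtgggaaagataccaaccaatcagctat
Amy1: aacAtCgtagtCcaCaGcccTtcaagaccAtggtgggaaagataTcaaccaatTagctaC
Amy2b has 6 differences in this window and Amy1 has 10, and the Amy2a1, Amy2a2, Amy2a3 and Amy2a4 sequences there are those of Amy2a5.

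The base missing from Amy2b lies in a run of 4 equal bases, so that its exact place, given as coding position 665, is ambiguous. The surrounding stretch is shown because the annotations disagree on this gene, with 1 of the 4 bases of the run in capitals in Amy2a5 to mark the difference.
Amy2a5: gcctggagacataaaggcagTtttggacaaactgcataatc
Amy2b: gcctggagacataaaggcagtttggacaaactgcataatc
In the Amy2b transcript the frame from the same start codon ended in a stop after 264 codons. The Amy1 frame ran for 511 codons, and the truncated Amy2a1 model held 245 codons with no stop.

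To describe how far reads could be assigned, each stretch of 100 exon bases was searched on both strands in the transcripts of 55341 genes. Of the Amy2b stretches, 1309 of 1478 (88.6%) were found in no other gene, and of those of Amy1 2314 of 3343 (69.2%), the other 1029 being shared with Rnpc3. The Amy2a5 exons had 2158 of 3872 such stretches (55.7%), and in its longer transcript all 1902 reached past the 3′ end that RefSeq gives, with 0 of 1478 inside the RefSeq bounds. The Amy2a1 exons had 43 of 791 (5.44%), all at the start of the transcript. Amy2a2, Amy2a3 and Amy2a4 had none (0%), because their exon sequences are equal. With stretches of 150 bases the share rose to 96.1% in Amy2b and stayed at 5.80% in Amy2a1. How reads with several equal alignments were counted is not given in the sources used here, so counts of Amy2a1 to Amy2a5 are uncertain between these copies. The deposited lengths equal whole gene spans, so intron reads were counted too, and intron sequence was not examined here.

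**Figure D2:**
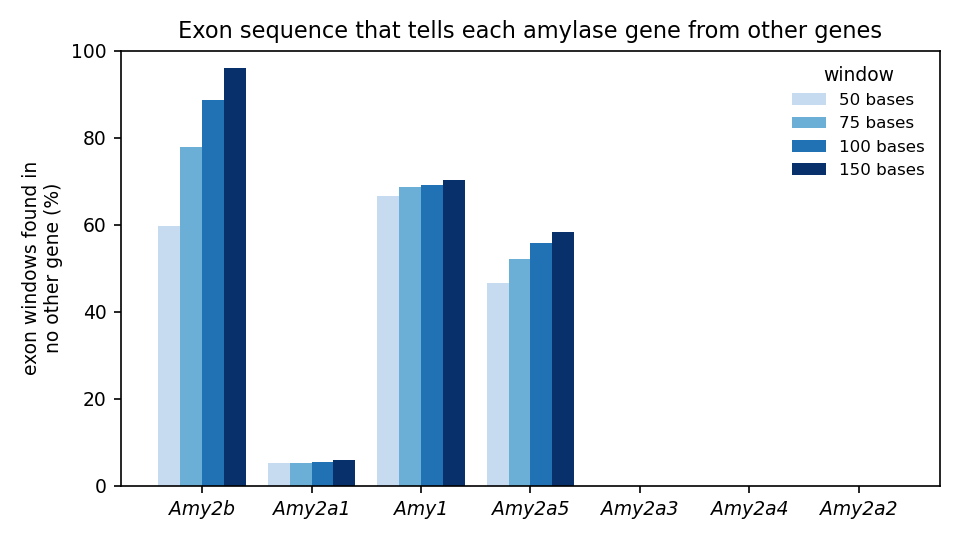
Share of exon stretches of 50, 75, 100 or 150 bases (bars, light to dark) that occur in no other annotated gene, in % of all exon stretches of each gene. Amy2b, Amy1 and Amy2a5 have sequence of their own, Amy2a1 about 5%, and Amy2a2, Amy2a3 and Amy2a4 none, shown by empty places.

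With exon lengths Amy2b had the highest level, an order that changed with another length, as given below. Of its 100-base exon stretches 88.6% were its own, against 5.44% for Amy2a1. Levels are given as TPM, counts per kb of exon scaled to the same total in every library, and the numbers that follow are for replicates 1 to 6. Amy2b had 3832, 2450, 2808, 1467, 527 and 1596 counts, or 547.9, 469.4, 475.1, 274.6, 155.7 and 297.1 TPM. All 3 libraries of set A lay above all 3 of set B, and replicate 5 was lowest. Among 21962 protein-coding or member genes its mean level ranked 46.

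Amy2a1 was next, with 569, 393, 491, 275, 82 and 205 counts, or 144, 133, 147, 91.2, 42.9 and 67.6 TPM (mean 104 ± 43.7, SD, n = 6). Its libraries fell into the same order by set, without overlap. Where along the gene its reads lie is not shown by the deposited counts.

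Amy1, the salivary and liver form, had 342, 279, 249, 184, 141 and 172 counts, or 22.4, 24.5, 19.3, 15.8, 19.1 and 14.7 TPM (mean 19.3 ± 3.75, SD, n = 6). The highest library of set B, replicate 5, lay just below the lowest of set A, replicate 3. Amy2a5 had 302, 255, 238, 259, 110 and 285 counts, or 17.1, 19.4, 16.0, 19.2, 12.9 and 21.1 TPM. Here the highest library was replicate 6, of set B, and the lowest was replicate 5.

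The last 3 copies had few counts. Amy2a3 had 34, 29, 24, 20, 12 and 14 counts (1.72 ± 0.439 TPM, SD, n = 6) and Amy2a4 had 24, 27, 22, 27, 9 and 20 counts (1.68 ± 0.414 TPM). Amy2a2 had 0, 0, 1, 1, 1 and 0 counts. With 0 counts seen, as many as 3 remain possible, a floor of 0.424 to 0.642 on the CPM scale (counts relative to the library's sum), so the data set only an upper limit for Amy2a2 (such floors and intervals cover counting error only). These 3 genes have the same exon sequence, yet received 133, 129 and 3 counts in all.

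**Figure D3:**
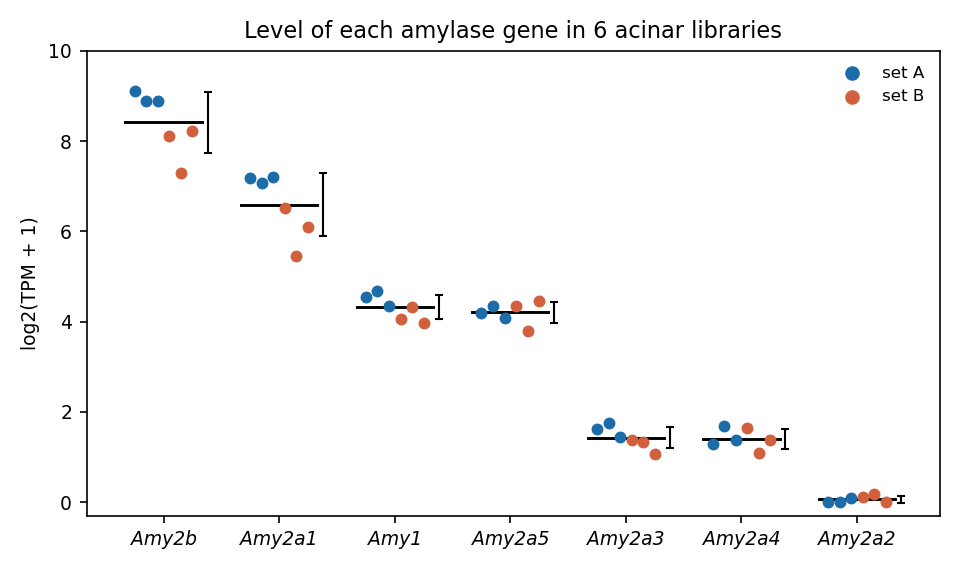
Level of each amylase gene as log2(TPM + 1) in the 6 libraries (points, blue for set A and orange for set B, in replicate order from left to right), with the mean (line) and SD (error bar, n = 6). The genes form steps, with Amy1 beside Amy2a5 and Amy2a3 beside Amy2a4.

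Neighbours in this order were compared within libraries on the log2(TPM + 1) scale, by a two-sided exact sign-flip test adjusted by Benjamini-Hochberg over 6 pairs (6 libraries allow no p under 0.031). Amy2b exceeded Amy2a1 by 1.82 ± 0.19 (SD, n = 6, higher in 6 of 6 libraries, exact adjusted p = 0.047). This order depends on the length used: with counts divided by the number of a gene's own 100-base stretches, a scale added after the data were seen, Amy2b lay below Amy2a1, at -2.26. With gene spans as lengths Amy2b was 1.06 above Amy2a1. Amy2a1 exceeded Amy1 by 2.27 ± 0.61 in 6 of 6 libraries (exact adjusted p = 0.047). The size of this step depends on the length, at 1.51 with exons within RefSeq bounds, 3.86 with gene spans and 6.08 with a gene's own stretches. Amy1 and Amy2a5 differed by 0.12 ± 0.40, with Amy1 higher in 4 of 6 libraries (exact adjusted p = 0.56). That difference is within the spread, and with gene spans as lengths Amy1 lay below Amy2a5, at -1.74 (exact adjusted p = 0.038). Amy2a5 exceeded Amy2a3 by 2.77 ± 0.35 in 6 of 6 libraries (exact adjusted p = 0.047), and by 3.84 with exons within RefSeq bounds. Amy2a5 has 2158 stretches of 100 exon bases of its own and Amy2a3 has 0, and their coding sequences are identical. This step therefore describes assigned counts and is not read as a difference in expression. Amy2a3 and Amy2a4 differed by 0.02 ± 0.26 (exact adjusted p = 0.75). For Amy2a4 over Amy2a2 the log2 difference is set by the pseudocount, being 1.34 ± 0.26 with 1 and 3.65 with 0.1, because Amy2a2 had 0 or 1 counts per library, and no test is read from it. In total counts over equal exon lengths the ratio of Amy2a4 to Amy2a2 was 43.0 (129 to 3 counts, 95% exact binomial interval 14.4 to 211, counting error only). Background expected over the Amy2a2 span was 225% of its counts, and exon reads cannot separate these genes. The ratio therefore describes assigned counts and is not read as a difference in expression.

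The 7 genes together had 5103, 3433, 3833, 2233, 882 and 2292 counts in replicates 1 to 6. Replicate 1 gave them the largest share of all counts, 0.0724% (95% interval by the exact Clopper-Pearson method, 0.0704% to 0.0744%), and replicate 5 the smallest, 0.0189% (0.0177% to 0.0202%). The mean share was 0.0464% ± 0.0212 (SD, n = 6). Summed amylase reached 515 ± 196 TPM, and 18 of the 23 other digestive enzyme genes on the list (trypsinogens, chymotrypsinogens, elastases, carboxypeptidases, lipases and Rnase1) were above that sum. Reads with several equal alignments may be missing from this sum, since their treatment is not given. Amy2a2, Amy2a3 and Amy2a4 have equal exon sequence but had 3, 133 and 129 counts in all. Exon reads counted once for each of these 3 copies can therefore be no more than the 3 counts of Amy2a2. Amy2a2, Amy2a3 and Amy2a4 have 0 stretches of 100 exon bases of their own, and Amy2a5 has 0 of 1478 inside its RefSeq bounds. If such reads were left out, the sum and its ratio to the enzymes can be too low. In bulk libraries of this kind, fewer acinar cells and less amylase RNA per cell cannot be told apart.

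Summed amylase followed the other digestive enzymes closely across libraries. For each amylase count there were 613, 629, 594, 602, 622 and 550 counts of the 23 enzymes in replicates 1 to 6 (602 ± 28.3, SD, n = 6), while the share of the enzymes in all counts ran from 44.4% in replicate 1 down to 11.7% in replicate 5. The log2 ratio of amylase to the enzymes was -9.23 ± 0.07, with means of -9.26 in set A and -9.21 in set B (exact two-sided permutation test, p = 0.60, 3 against 3). The same ratio taken for each of the 22 enzymes with counts against the rest had SDs of 0.093 (Ctrb1, a chymotrypsinogen) to 1.46 (Prss1, a trypsinogen), with a median of 0.24, and none was lower than the 0.070 of amylase. A sum of genes and a single enzyme differ in counting error, so these SDs are a description.

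**Figure D4:**
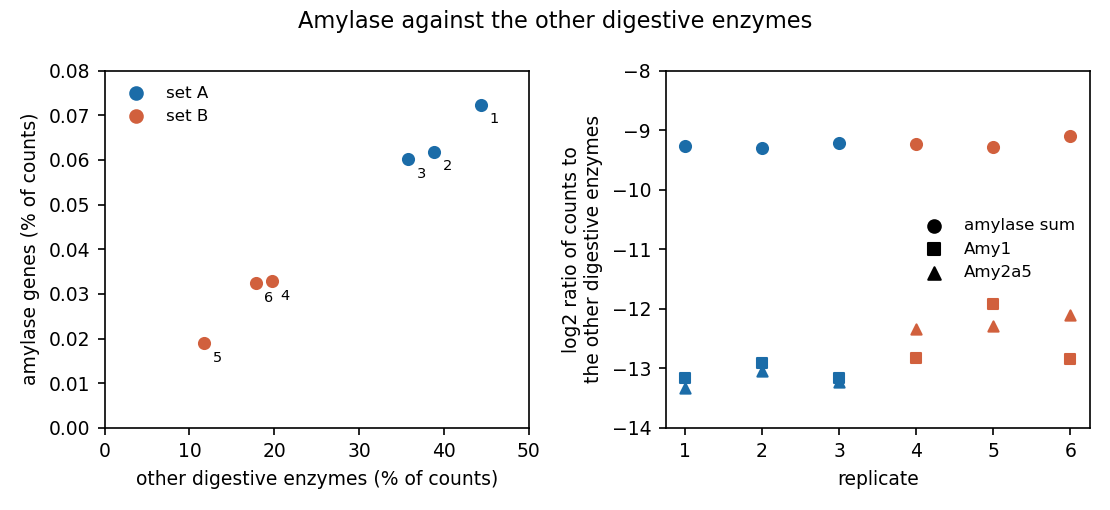
Left, share of the amylase genes against the share of the other digestive enzymes in all counts, in %, for each library (points numbered by replicate, blue for set A and orange for set B). Right, log2 ratio of counts to the other digestive enzymes for the amylase sum (circles), Amy1 (squares) and Amy2a5 (triangles), where the sum stays near -9.23 and the Amy1 and Amy2a5 ratios are higher in set B.

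The single copies varied more. Against the enzymes the log2 ratio had an SD over the 6 libraries of 0.15 for Amy2b, 0.20 for Amy2a1, 0.46 for Amy1 and 0.54 for Amy2a5. For Amy2a5 the ratio was 0.96 higher in set B than in set A, and for Amy1 0.55 higher. Without any 1 library, a check added after the data were seen, the Amy2a5 difference stayed between 0.89 and 1.04, while that of Amy1 was 0.24 without replicate 5. In both genes all 3 libraries of set B were above all 3 of set A, at the smallest exact permutation p that 3 against 3 allow, 0.10. The share of all genes with this order in the ratio was not counted. The enzymes in the denominator took 39.7% of counts on average in set A and 16.4% in set B. Single enzymes against the rest shifted by -0.56 (Ctrl) to 2.55 (Prss1), with 0.97 for Cela3a, 0.57 for Cela3b and -0.34 for Clps. Among the 22 enzymes with counts, only Prss1 and Cela3a, with as few as 14 and 58 counts in a library, reached the 0.96 of Amy2a5. The 0.55 of Amy1 was exceeded by these and by others, such as Cela3b, so a shift of that size was not particular to Amy1.

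As a share of amylase counts, which are not divided by length, Amy2b took 75.1%, 71.4%, 73.3%, 65.7%, 59.8% and 69.6% in replicates 1 to 6. Amy2a5 took 5.92%, 7.43%, 6.21%, 11.6%, 12.5% and 12.4%, so that the set means were 6.52% ± 0.801 for A and 12.2% ± 0.494 for B (SD over 3 libraries each). The sets did not overlap in either gene, with the Amy2b share lower and the Amy2a5 share higher in set B. These shares are parts of the same sum, so a lower Amy2b share raises those of the other copies. Both genes had negative edgeR estimates for set B minus set A, -1.48 for Amy2b and -0.44 for Amy2a5. How often genes of other families show such an order of shares was not counted. The ratio of Amy2b to Amy2a5 counts was 12.7, 9.61 and 11.8 in set A and 5.66, 4.79 and 5.60 in set B. Amy2b and Amy2a1 kept a closer ratio, 6.73, 6.23, 5.72, 5.33, 6.43 and 7.79 counts of Amy2b for each of Amy2a1. Amy1 took 6.50% to 8.24% in 5 libraries and 16.0% in replicate 5.

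**Figure D5:**
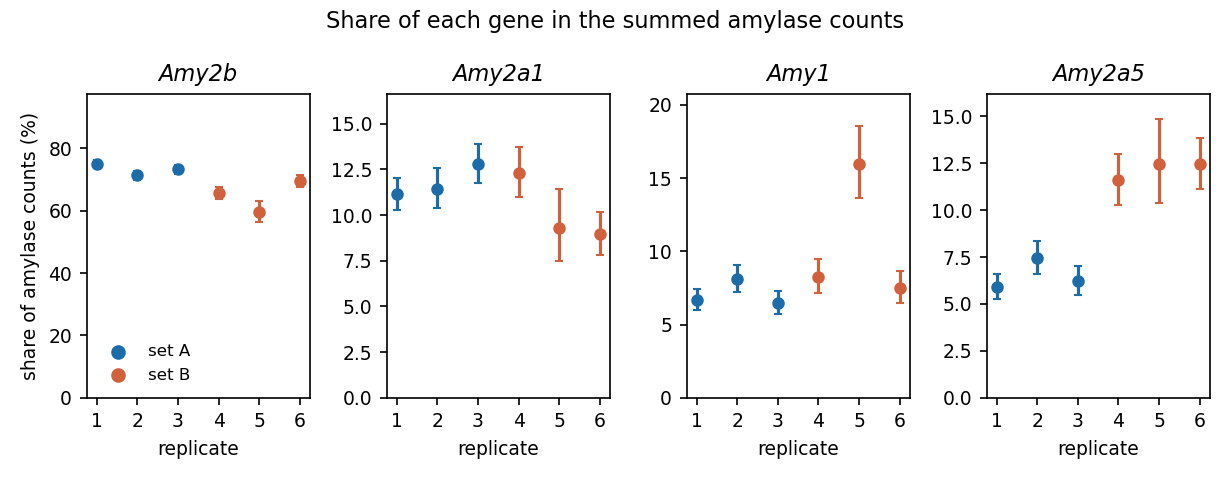
Share of Amy2b, Amy2a1, Amy1 and Amy2a5 in the summed amylase counts of each library, in %, with exact Clopper-Pearson 95% intervals (error bars, counting error only) and blue for set A, orange for set B. The Amy2a5 share is 5.92% to 7.43% in set A and 11.6% to 12.5% in set B, and the Amy1 share of replicate 5 is 16.0%.

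Between the sets, no amylase gene passed edgeR's quasi-likelihood test fitted over 8723 genes, in which 1 gene (0.0115%) was called. In simulated data this test recovered 78% of 4-fold changes but 5% of 2-fold changes, so the lack of calls does not show equal levels. All 6 members tested had negative estimates, as had 21 of the 22 other digestive enzymes and 4385 of the 8723 genes. An unadjusted p under 0.05 was found for 4 members, for 16 of the 22 enzymes and for 2258 of all genes (25.9%). The log2 differences (set B minus set A, with SE and edgeR adjusted p) were -1.48 for Amy2b (0.39, adjusted p = 0.089), -1.51 for Amy2a1 (0.38, 0.089) and -0.94 for Amy1 (0.24, 0.089). For Amy2a3 the estimate was -1.05 (0.36, 0.112), for Amy2a4 -0.54 (0.43, 0.457) and for Amy2a5 -0.44 (0.33, 0.438). The median of the 6 was -0.995, against -1.38 over the 22 other digestive enzymes tested and -0.00 over all genes tested. Amy2a2 did not pass the filter on low counts. Other fits called more members and more genes of all kinds. DESeq2 called 3 of the 6 members and 1021 of 8723 genes (11.7%). Without replicate 4 edgeR called 4 members and 2217 of 9801 genes (22.6%), without replicate 5 it called 3 members and 735 of 9057 genes (8.12%), and without a filter 2 members and 993 of 29779 genes (3.33%). Without any of replicates 1, 2, 3 or 6 it called 0 members and 0 genes.

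In CPM, the libraries of set B were all below those of set A for Amy1, Amy2a1, Amy2a3 and Amy2b, an order that 13.4% of the 8723 genes showed. No member showed the opposite order, which 19.0% of the genes did. The sets overlapped for Amy2a4 and Amy2a5. Summed amylase reached 648 ± 66.0 CPM in set A against 280 ± 79.3 CPM in set B (SD over 3 libraries each), without overlap (exact two-sided permutation test, p = 0.10). On counts outside ribosomal RNA the difference shrank from 2.31-fold to 1.61-fold. Ribosomal RNA took 37.4% to 45.8% of counts in set A and 58.9% to 60.1% in set B. Counts over olfactory and vomeronasal receptor genes, taken as background, were 26.4 to 39.4 per Mb in set A and 52.2 to 327 in set B. Of the 6 islet marker genes, 4 averaged at least 1 TPM, led by Ins2 and Ins1, and their summed level was 8.90 to 39.4 TPM in set A and 37.8 to 2224 in set B, with counts for every marker. The part of ribosomal RNA, background and islet RNA in the amylase difference was not tested.

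Most regulators known for acinar enzyme genes averaged at least 1 TPM, as did 22 of the 23 digestive enzymes. Of 13 acinar transcription factors, 10 averaged at least 1 TPM, led by Xbp1, a factor of the secretory pathway, at 42.0 ± 14.6 and Bhlha15, which acts in granule maturation, at 32.0 ± 6.50 (SD, n = 6). The PTF1 members Rbpjl and Ptf1a had 24.8 ± 7.26 and 11.6 ± 2.67 TPM. On the same list Tcf12 had 2.48 TPM, Rbpj 0.991 and Tcf3 0.918. Of their counts 21.1%, 47.9% and 18.9% would be expected from background. Markers of the tissues known for Amy1 were low. Of 13 salivary gland genes none reached a mean of 1 TPM, 5 (Smr3a, Dcpp1, Dcpp3, Pip and Prpmp5) had no counts, and the highest, Lpo and Aqp5, had 0.638 and 0.526 TPM, with 45.4% and 9.05% of their counts expected from background. Of 7 liver genes 2 reached it, Ttr at 23.1 ± 23.8 TPM, which islet cells also make, and Apoa2 at 1.19, and the albumin gene Alb had 0.598 TPM, with 41.5% of its counts expected from background.

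Genes of the later steps of starch digestion and of glycogen turnover were few. Of 11 such genes 5 averaged at least 1 TPM, led by the glycogen branching enzyme Gbe1 at 2.81 ± 1.99 and the lysosomal glucosidase Gaa at 1.50 ± 0.470 (SD, n = 6). The intestinal enzymes that split the products of amylase, Mgam and Sis, had 0.574 and 0.340 TPM. The count expected from background over the gene span was 54.4% of the counts for Gbe1, 7.09% for Gaa, 99.4% for Mgam and 118% for Sis, so no level above background is read for Mgam and Sis.

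Of 1750 genes with a mean of 10 CPM or more, the 5 whose log2(CPM + 1) was most alike to summed amylase over the 6 libraries were Pdia2, a pancreatic disulfide isomerase (Pearson's r = 0.999), Zg16, a lectin of zymogen granules (0.998), Ggt1, a gamma-glutamyltransferase (0.998), Prss2, a trypsinogen (0.998), and Cel, the bile salt-activated lipase (0.998). Pdia2 had 1437, 1283, 1160, 605, 349 and 605 CPM in replicates 1 to 6, against 724, 618, 602, 328, 189 and 324 for amylase. Both were highest in replicate 1 and lowest in replicate 5. These points share libraries, depth and the difference between sets, and 325 of the 1750 genes (18.6%) had an r over 0.9.

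The promoters of Amy2b and Amy2a5 are shown because the annotated starts of these copies lie at equivalent bases and the copies took opposite shifts of share between the sets. They are the RefSeq windows of build GRCm38.p6 from 250 bases before to 50 after the start, minus strand, chr3:113156678-113156977 for Amy2b and chr3:113258650-113258949 for Amy2a5. Capitals mark the letters TATAAA and the E boxes CACCTG and CAGCTG, the kind of site that PTF1 binds.
Amy2b: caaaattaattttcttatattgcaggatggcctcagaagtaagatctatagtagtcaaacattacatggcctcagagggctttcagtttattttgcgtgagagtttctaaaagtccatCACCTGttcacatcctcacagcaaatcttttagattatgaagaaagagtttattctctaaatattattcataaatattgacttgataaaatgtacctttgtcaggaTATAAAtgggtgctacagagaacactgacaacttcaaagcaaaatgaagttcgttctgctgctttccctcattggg
Amy2a5: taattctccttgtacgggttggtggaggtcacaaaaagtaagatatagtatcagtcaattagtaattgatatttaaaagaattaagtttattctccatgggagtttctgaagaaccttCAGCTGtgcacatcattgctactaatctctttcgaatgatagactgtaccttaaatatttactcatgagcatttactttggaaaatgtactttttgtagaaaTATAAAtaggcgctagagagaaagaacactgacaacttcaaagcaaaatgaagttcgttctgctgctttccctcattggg
The windows were identical in their last 58 bases and at 207 of 307 alignment columns (67.4%). Counted from the annotated start, TATAAA began at -26 in Amy2b and at -30 in Amy2a5. At -132 Amy2b had CACCTG and Amy2a5 had CAGCTG. Searched on both strands, TATAAA was in 13.6% of 32851 promoter windows, CACCTG in 20.2% and CAGCTG in 16.3%. The letters TTCCCA, also searched on both strands as the second box of PTF1 sites and found in 25.6%, were in neither window. The windows of Amy2a2, Amy2a3 and Amy2a4 were identical to each other. In these and in the Amy2a1 window CAGCTG began at 7, because their annotated starts lie further upstream. The letters around it were those of Amy2a5, so this E box is not particular to Amy2a5. Any relation of these letters to the shifts of share was not tested.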

How the data were processed

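RNA was measured in 6 libraries of 1 group. Per the submitters' processing notes, the authors used Trim Galore 0.6.4, FastQC, STAR 2.7.9a, SAMtools and featureCounts with build mm10. The deposited files hold whole-number counts for each gene symbol, with no normalization. The deposited Length, another quantity, is the counted length in bp and equals the gene span for all 55253 symbols with 1 interval, so introns were counted. The annotation release, the strand setting and how multiply aligned reads were treated are not given in the sources used here. The molecule label reads genomic DNA.

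Exon lengths from GENCODE M21 were found for 55141 of 55367 symbols, holding 99.9967% of counts. TPM used them, with a pseudocount of 1 on the log2 scale. Precision rests on totals of 4670819 to 7072270 counts in each library. Background was the count per Mb over 1491 receptor genes. Members were compared with exact sign-flip tests. Sets A and B were set against each other by the quasi-likelihood test of edgeR 4.0.16, after filterByExpr and TMM scaling, at a Benjamini-Hochberg adjusted p of 0.05, and by DESeq2 1.42.0, in R 4.3.3. The script was tested on simulated data of 8723 genes, 200 of them changed, with the same dispersion for all genes. Of the calls made there, 3.49% were false. Sequences were aligned with MAFFT 7.526. Tables and plots used matplotlib 3.10.9, scipy 1.17.1, pandas 2.3.3 and numpy 2.4.6 in Python 3.11.15. Named genes are the 7 members, the nearest protein-coding gene on each side, the 5 genes most alike to summed amylase and the 2 highest of each marker list. Rbpjl, Ptf1a, Rbpj, Tcf3, Tcf12, Alb, Mgam and Sis, and the genes without counts, were named after their values were seen. So were the enzymes Ctrl, Prss1, Cela3a, Cela3b and Clps. Members and lists were chosen with earlier results of these data known. Alternatives were other lengths, pseudocount, background, denominators, filters and left-out replicates. No library pair agreed within sampling noise.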

Additional observations from a re-analysis of the deposited data

Results flagged for a closer look

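The Amy1 share of amylase counts in replicate 5, 16.0%, stood far from the other 5 libraries, whose shares were 6.50% to 8.24%. Its gap to the nearest library was 0.816 of the whole range, above the critical value of Dixon's test for 6 samples. It was the 1 value that stood apart among 17 tested in this way, a scan in which chance marks about 1 in 20. In that library 141 Amy1 counts faced an expected background of 16.7 counts, the highest of the 6 libraries, and Amy2b had its lowest count, 527. The part of the background in the share was not tested.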

How the results depend on the processing

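The order of Amy2b above Amy2a1 turned to -2.26 (exact sign-flip adjusted p = 0.047) with the number of a gene's own 100-base stretches as length. Amy1 minus Amy2a5 turned to -0.18 on that scale, to -0.20 with exons within RefSeq bounds and to -1.74 with gene spans (exact adjusted p = 0.038), the first and second scale having been added after the data were seen. Amy2a3 minus Amy2a4 ranged from -0.038 to 0.084 with 1 replicate left out. The amylase share rose to 0.0897% on counts outside ribosomal RNA and ranged from 0.0412% to 0.0519% with 1 replicate left out. The log2 ratio to the enzymes was -4.52 against the median enzyme level.

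Between the sets, the count of members called moved from 0 to 2 without a filter, where the median of all genes shifted to 0.77, to 3 with DESeq2, and to between 0 and 4 with 1 replicate left out, while calls over all genes rose from 1 to 993 (3.33%) without a filter, 1021 (11.7%) with DESeq2 and 2217 (22.6%) without replicate 4. Adjusted p of Amy2b ranged from 5.28e-04 (edgeR without replicate 5) to 0.303 (without replicate 1). Summed amylase, at -1.34 (SE 0.36, edgeR adjusted p = 0.090), ranged from -1.63 (without replicate 4, adjusted p = 0.030) to -1.05 (without replicate 5, adjusted p = 9.39e-04). Leaving out replicates was planned for single genes and added for the sum after the data were seen. Of the other alternatives, 27 tested values for the main comparisons and 42 for single genes kept direction and side of the threshold. A further 51 values without a test moved by less than 1 SD or, for counts of calls, were equal. The causes were not tested. Libraries could not be paired between groups because they form 1 group, whereas the members were compared within libraries. Depth limits Amy2a2, with 0 or 1 counts per library, most.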

Other observations

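Outside the 7 members, the cluster holds the annotated pseudogene Amy2-ps1 (chromosome 3, 113182249 to 113206697, build mm10), between Amy2b and Amy2a5. It had 30, 11, 22, 15, 15 and 10 counts in replicates 1 to 6, of which 13.8% would be expected from background over its span. The neighbours of the cluster were low. Prmt6, an arginine methyltransferase gene that ends 2897 kb from Amy2b, had 2 to 10 counts per library. Rnpc3, a gene of the minor spliceosome at the Amy1 end, had 11 to 24 counts (0.733 ± 0.196 TPM, SD, n = 6).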
